A study of Arabidopsis thaliana with 12 samples.

Results

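The comparison set 3 RNA-Seq libraries of OE APOLO-1 seedlings against 3 libraries of vim1-3 seedlings, 6 of the 12 libraries in the series. The libraries were taken by genotype and temperature from the sample labels. The comparison and the gene lists were chosen with earlier results of these data known. The WT libraries at 23 °C were kept out of the fit because they varied more than the others. All seedlings of the comparison were Arabidopsis thaliana in the Col-0 background, 4 days old and kept at 23 °C. OE APOLO-1 carries the APOLO sequence under the 35S promoter of cauliflower mosaic virus, which is active in most plant tissues, and it is 1 transgenic line. The vim1-3 line carries a T-DNA insertion in VIM1 and is also 1 line. Whole seedlings were sampled, so fewer cells of a type and less RNA per cell cannot be told apart in these counts. The 6 libraries not in the comparison were WT seedlings at 23 °C and at 29 °C, 3 of each, and they appear only as reference levels. By the paper's methods, the warm seedlings spent 4 days at 23 °C and then 6 h at 29 °C. A difference between the mutant and the over-expressor does not by itself say which of the lines departed from WT.

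APOLO is a long noncoding RNA transcribed beside PID, a kinase gene that controls the polar transport of auxin, and it is known for acting on chromatin loops at PID and at other auxin-responsive genes. VIM1 is a RING-finger protein that binds methylated cytosine and takes part in maintaining CG methylation through the methyltransferase MET1. The question put by the direct comparison is how far the transcriptome of a plant with excess APOLO differs from that of a plant short of its partner VIM1.

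The number of reads counted on genes ran from 14954264 to 19754699 per library in OE APOLO-1 and from 12611895 to 22925019 in vim1-3. The first principal component of log2 CPM (CPM being the reads of a gene relative to the TMM-scaled size of the library) held 56.8% of the variance and separated the genotypes. The median SD of a gene among replicates on the log2 scale reached 0.146 among the OE APOLO-1 libraries and 0.10 among those of vim1-3. The plastid genome took between 0.141 and 0.259% of the counts in 5 libraries and 1.44% in vim1-3 replicate B. The plastid share (0.197 ± 0.0537% in OE APOLO-1, 0.583 ± 0.742% in vim1-3, SD, n = 3) gave p = 0.9 in a two-sided exact permutation test, 0.1 being the smallest p this design allows, and the difference of -0.385 percentage points became 0.0427 without vim1-3 replicate B. Nuclear photosystem and light-harvesting genes were expressed in every library, and markers of seeds and of flower organs summed to at most 40.5 and 35.1 CPM. Root hair genes summed to 503, 394 and 377 CPM in replicates A to C of OE APOLO-1 and to 397, 235 and 326 CPM in those of vim1-3, so that the ranges overlapped.

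The lines were as labelled at the targeted loci. APOLO (AT2G34655) stood at 356, 470.2 and 611 CPM in replicates A, B and C of OE APOLO-1 and at 0.770, 0.799 and 0.255 CPM in those of vim1-3, the latter from 18, 10 and 6 reads. The log2 fold change (OE APOLO-1 over vim1-3, ± SE) was 9.69 ± 0.41, with an adjusted p of 7.20e-05. The groups lay far apart, and APOLO in the over-expressor was also above the 57.2, 0.115 and 0.117 CPM of the 3 WT libraries at 23 °C, of which replicate A alone was high. VIM1 (AT1G57820) stood at 11.3, 11.8 and 10.3 CPM in OE APOLO-1 and at 0.214, 0.240 and 0.0426 CPM in vim1-3, where 5, 3 and 1 reads were counted. Its log2 fold change was 6.13 ± 0.27 (adjusted p = 1.38e-10), and the WT libraries at 23 °C held 7.03, 3.90 and 6.56 CPM.

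The paralogs of VIM1 did not pass the test. VIM3 was at 6.79, 6.52 and 5.11 CPM in OE APOLO-1 and 6.89, 4.88 and 6.09 CPM in vim1-3, and VIM6, listed as ORTHL, was at 3.43, 3.89 and 2.71 against 4.11, 3.12 and 3.83 CPM. VIM2, VIM4 and VIM5 were at or below 1.32 CPM in all 6 libraries, with VIM5 too low to be tested. In the exons of VIM2 and VIM4, 56.6% and 64.8% of stretches the length of a read recur elsewhere in the genome, so that their counts are uncertain. PID, the neighbour of APOLO, was at 2.15, 1.68 and 1.72 CPM in OE APOLO-1 and 2.99, 1.92 and 2.55 CPM in vim1-3, a log2 fold change of -0.47 ± 0.23 with an adjusted p of 0.171. ABCC2, the gene on the other side of APOLO, was at 42.8, 46.4 and 38.8 against 41.2, 50.2 and 46.3 CPM and also did not pass, while the neighbours of VIM1 were VIM5 and AT1G57835, both too low to be tested. None of these pairs of groups showed a separation like that of APOLO and VIM1.

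Across the genome the genotypes differed at 2146 of 20126 genes tested (10.7%), by edgeR's quasi-likelihood test with a Benjamini-Hochberg adjusted p below 0.01. In OE APOLO-1, 926 genes were higher (4.60%) and 1220 were lower (6.06%). Large differences were mostly decreases in OE APOLO-1. There, 383 genes were lower by 2-fold or more and 130 by 4-fold or more, against 96 and 10 higher. The median log2 fold change was 0.53 among the genes called higher, -0.69 among those called lower and 0.00 over all genes tested. Every called gene had its 3 values in one genotype above its 3 values in the other, which was also true of 36.7% of all genes tested. A lack of overlap given below for a called gene thus holds for every called gene and adds no support to its call. The number called higher was 526, 617 and 469 without vim1-3 replicate A, B or C, and a fit that took its spread from all 12 libraries called 120 genes higher and 267 lower. Calls and list counts that this 12-library fit ends or moves by over 1.5 times are given with each group, and the call of APOLO is among those it ends.

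**Figure D1:**
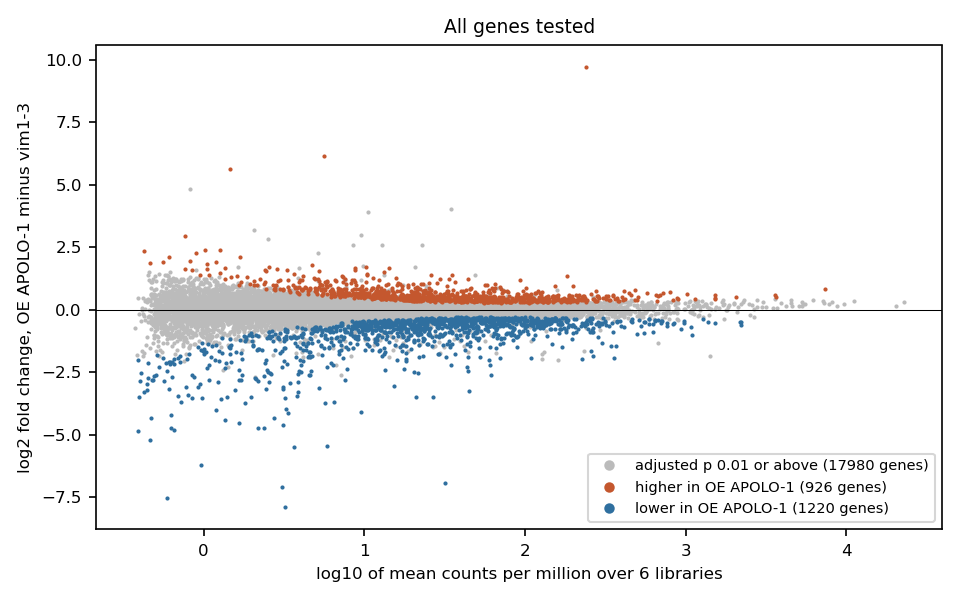
Log2 fold change (OE APOLO-1 minus vim1-3) against the log10 of the mean CPM over the 6 libraries, each point a gene of the 20126 tested; orange points are the 926 called higher, blue points the 1220 called lower. Of the called genes past 4-fold, 10 lie above zero and 130 below.

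Among 44 gene lists, the largest share of members called lower in OE APOLO-1 was found for genes that plants induce within minutes of touch, wounding or a pathogen signal. They encode zinc-finger, ERF, MYB and NAC transcription factors, calmodulin-like calcium sensors and a cell-wall enzyme. The list of rapid touch and stress genes had 14 tested members, of which OE APOLO-1 was lower at 13 (92.9%, against 6.06% of all genes) and higher at 0. Their median log2 fold change was -2.02 against 0.00 over all genes. Their summed level was between 395 and 419 CPM in the OE APOLO-1 libraries and between 1216 and 1246 CPM in the vim1-3 libraries. The number called lower was 9 in the 12-library fit.

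STZ, a zinc-finger repressor also called ZAT10, was at 8.37, 7.67 and 9.60 CPM in replicates A, B and C of OE APOLO-1 and at 77.5, 79.4 and 84.6 CPM in vim1-3. The log2 fold change was -3.23 ± 0.09 (adjusted p = 1.04e-12), and the groups did not overlap. Where 3 values stand against 3 others here and in what follows, they are those of OE APOLO-1 against those of vim1-3, in the order A, B and C. ERF104, an ethylene response factor of immune signalling, was at 16.7, 18.4 and 16.8 CPM against 100.5, 106 and 111 CPM, a log2 fold change of -2.61 ± 0.08 (adjusted p = 2.06e-12). ERF6 and ERF5 are close relatives of ERF104. ERF6 was at 15.4, 12.1 and 13.6 CPM in OE APOLO-1 and 73.4, 76.5 and 74.97 CPM in vim1-3 (-2.46 ± 0.09, adjusted p = 1.71e-11). ERF5 was at 9.15, 9.41 and 9.18 against 33.3, 32.8 and 36.7 CPM (-1.89 ± 0.09, adjusted p = 4.37e-10). Both showed narrow spreads within each genotype. AT5G51190, a further ERF gene, was at 3.505, 2.73 and 3.55 against 24.9, 30.1 and 26.7 CPM (-3.06 ± 0.13, adjusted p = 6.84e-11), but its annotated exons lie wholly within those of AT5G51180 on the opposite strand, and the strand setting of the counting is not given in the sources used here.

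TCH3, CML38 and TCH2, calcium sensors chosen after their values were seen, were also lower in OE APOLO-1. Of 33 EF-hand calcium-binding proteins, a family also picked out afterwards, 7 were lower and 1 was higher. Over all genes 6.06% were called lower and 4.60% higher. The other 25 of the family were not called, and the 12-library fit called 2 lower. TCH3, a calmodulin-like protein, was at 119, 117 and 106 CPM in OE APOLO-1 and 437, 389 and 415 CPM in vim1-3, a log2 fold change of -1.86 ± 0.09 (adjusted p = 1.93e-10). CML38, another calmodulin-like protein, was at 2.15, 2.78 and 2.71 against 13.7, 12.6 and 13.1 CPM (-2.35 ± 0.14, adjusted p = 4.37e-09). Touch genes with a smaller difference were TCH4, a xyloglucan endotransglucosylase that remodels the cell wall, and TCH2, a calmodulin-like protein. TCH4 was at 179, 173 and 202 against 393, 389 and 380.1 CPM (-1.07 ± 0.08, adjusted p = 1.24e-07), and TCH2 at 25.03, 24.6 and 30.7 against 40.8, 43.6 and 42.3 CPM (-0.65 ± 0.09, adjusted p = 7.54e-05). Of the exon bases of TCH3 and TCH2, 20.2% and 20.9% overlap genes on the opposite strand. The zinc-finger gene RHL41, also known as ZAT12, was at 13.4, 13.2 and 9.44 against 17.8, 17.6 and 18.2 CPM (-0.58 ± 0.12, adjusted p = 0.00255) and lost its call without OE APOLO-1 replicate C or vim1-3 replicate A or C, where its adjusted p reached 0.0136, and in the 12-library fit.

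WRKY factors bind the W-box, TTGAC with a following C or T, and many of them act in immune signalling. Of 56 WRKY genes, OE APOLO-1 was lower at 18 (32.1%, against 6.06% of all genes) and higher at 0, with a median log2 fold change of -0.41. The 12-library fit called 6 lower, and the calls of WRKY11, WRKY30 and WRKY70 were lost in it. WRKY40 was at 3.29, 3.63 and 6.10 CPM in replicates A, B and C of OE APOLO-1 and 46.3, 46.8 and 54.2 CPM in vim1-3, a log2 fold change of -3.48 ± 0.18 (adjusted p = 6.12e-07). WRKY33, required for the synthesis of the phytoalexin camalexin, was at 29.3, 30.5 and 26.8 against 108, 112 and 114 CPM (-1.95 ± 0.08, adjusted p = 3.84e-11). Among the more weakly expressed members, WRKY53 was at 1.43, 0.998 and 1.41 against 8.04, 7.67 and 7.71 CPM (-2.62 ± 0.18, adjusted p = 3.12e-08). In none of these genes did a library of one genotype reach the range of the other, and 20.5% of the exon bases of WRKY53 overlap a gene on the opposite strand. WRKY30 was at 0.0715, 0.210 and 0.157 CPM in OE APOLO-1 and 2.05, 1.598 and 1.75 CPM in vim1-3 (-3.52 ± 0.40, adjusted p = 8.48e-06), and WRKY70 was at 8.22, 6.41 and 5.79 against 19.4, 22.7 and 17.3 CPM (-1.54 ± 0.14, adjusted p = 7.53e-07).

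WRKY genes are known to hold W-boxes in their own promoters, so the 250 bases before the annotated start of each gene were searched for TTGAC on both strands. The core was present in 55.9% of 1219 promoters of genes lower in OE APOLO-1, in 43.0% of 926 promoters of genes higher and in 45.3% of 20033 promoters of all genes tested. CGCGTT, the core of the rapid stress response element, was in 4.51%, 1.73% and 2.77% of the same promoters. The G-box CACGTG was in 9.27%, 7.24% and 7.38%, and GAAGAA, a motif linked to APOLO targets, in 29.5%, 27.2% and 30.0%. These shares describe letters in a window and were not tested. The promoters of 4 WRKY genes are shown because, among the 24 called WRKY and rapid touch and stress genes whose window holds no exon of another gene, they hold the most cores; 13 of the 24 hold at least 1. They were read from RefSeq TAIR10.1, with capitals marking TTGAC or its reverse complement GTCAA, and each runs 5′ to 3′ on the strand of its gene.
WRKY30 (chr5:8154711-8154960, minus strand): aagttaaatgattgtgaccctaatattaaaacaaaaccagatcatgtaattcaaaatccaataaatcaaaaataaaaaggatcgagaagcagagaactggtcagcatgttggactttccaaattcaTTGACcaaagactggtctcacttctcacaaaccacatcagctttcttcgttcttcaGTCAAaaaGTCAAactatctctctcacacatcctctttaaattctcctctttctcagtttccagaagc
WRKY11 (chr4:15291935-15292184, minus strand): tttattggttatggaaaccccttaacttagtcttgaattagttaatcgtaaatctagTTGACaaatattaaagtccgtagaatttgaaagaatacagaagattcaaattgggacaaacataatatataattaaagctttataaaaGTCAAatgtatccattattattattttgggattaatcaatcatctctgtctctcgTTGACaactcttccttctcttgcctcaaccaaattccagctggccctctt
WRKY33 (chr2:16107985-16108234, plus strand): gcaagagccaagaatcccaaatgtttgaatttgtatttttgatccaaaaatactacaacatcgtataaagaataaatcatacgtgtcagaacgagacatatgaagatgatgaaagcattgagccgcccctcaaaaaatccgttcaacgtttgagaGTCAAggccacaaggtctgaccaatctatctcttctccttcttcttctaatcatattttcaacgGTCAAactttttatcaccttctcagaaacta
WRKY53 (chr4:12393983-12394232, minus strand): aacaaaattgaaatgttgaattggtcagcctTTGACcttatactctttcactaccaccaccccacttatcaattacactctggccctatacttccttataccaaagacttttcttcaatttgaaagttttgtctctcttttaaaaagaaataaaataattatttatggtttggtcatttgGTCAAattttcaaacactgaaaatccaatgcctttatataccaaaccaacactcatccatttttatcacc
Of the 3 cores of WRKY11, 2 are followed by A and not by the C or T of a W-box. WRKY30 and WRKY11 hold 3 cores in this window, and WRKY33 and WRKY53 hold 2. WRKY11, the member with the smallest difference of these, was at 53.1, 43.4 and 44.5 CPM in OE APOLO-1 and 59.8, 65.0 and 63.4 CPM in vim1-3 (-0.42 ± 0.08, adjusted p = 0.00182), and its call was lost without OE APOLO-1 replicate B or C or vim1-3 replicate B or C, with an adjusted p of up to 0.0141.

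Outside these lists, the gene with the most extreme p was also lower in OE APOLO-1. AT2G43620, annotated as a chitinase family protein, was at 0.572, 0.631 and 0.365 CPM in replicates A, B and C of OE APOLO-1 and at 71.7, 55.2 and 61.1 CPM in vim1-3, a log2 fold change of -6.91 ± 0.17 (adjusted p = 2.93e-13). It was almost silent in the over-expressor and plainly expressed in the mutant. DIC2, a mitochondrial dicarboxylate carrier, was at 2.86, 3.31 and 4.02 against 37.4, 35.6 and 43.3 CPM (-3.498 ± 0.13, adjusted p = 1.71e-11). CAF1a, a deadenylase that shortens mRNA tails, was at 5.15, 5.83 and 7.41 against 31.2, 36.6 and 35.9 CPM (-2.48 ± 0.12, adjusted p = 5.08e-10). ACS6 makes the precursor of ethylene. It was at 4.58, 3.73 and 4.64 CPM in OE APOLO-1 and 21.4, 24.7 and 21.97 CPM in vim1-3 (-2.39 ± 0.12, adjusted p = 6.08e-10). FRK1, a receptor kinase induced by the bacterial peptide flg22, was at 1.00, 0.893 and 0.939 against 13.3, 11.5 and 11.4 CPM (-3.68 ± 0.17, adjusted p = 1.93e-10). FRK1 was the 1 called gene among 12 tested salicylic acid and immune genes (8.33% lower, near the 6.06% of all genes). The call of ACS6 was lost in the 12-library fit. Of the rest with the largest differences, AT1G72060, a protease inhibitor gene, and AT1G07135, a glycine-rich protein gene, had log2 fold changes of -2.36 ± 0.12 and -2.27 ± 0.18. In AT1G72060, 45.6% of the exon bases overlap AT1G72070 on the opposite strand. AT1G26250, an extensin-like gene, had a log2 fold change of -2.54 ± 0.29 with an adjusted p of 0.00290, but the call was lost without any 1 of the OE APOLO-1 libraries, where its adjusted p reached 0.0359, and 88.7% of its exon bases overlap AT1G26255 on the opposite strand.

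**Figure D2:**
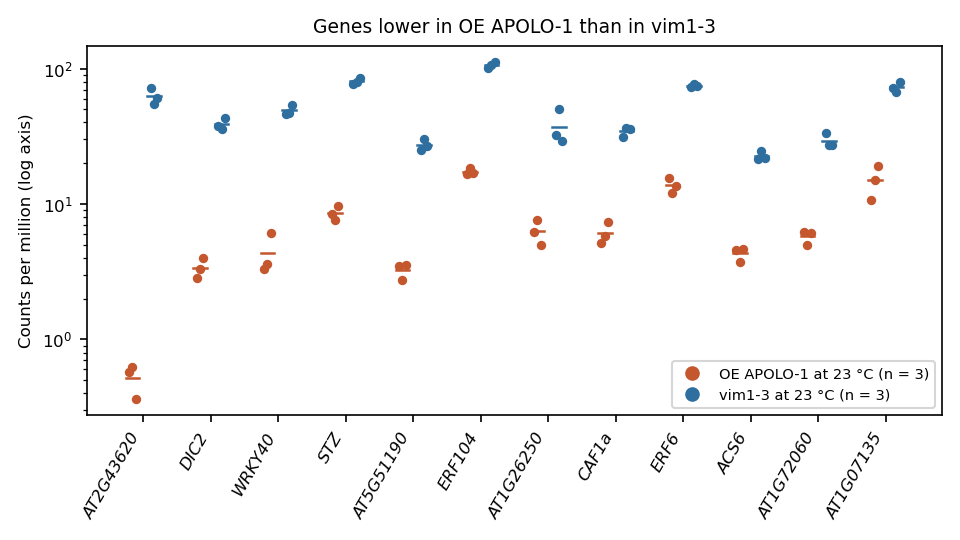
CPM (log axis) of the 12 genes with the largest decrease in OE APOLO-1 at a mean of at least 10 CPM; each point is a library, the short line the mean of 3, orange OE APOLO-1 and blue vim1-3. The 12 were chosen among called genes without overlap between the genotypes, so the vim1-3 points lie above the OE APOLO-1 points by that choice.

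Several gene families were picked out after the values were seen, and they are given as counts only, beside the 6.06% of all genes called lower and 4.60% called higher. All 6 genes annotated in the words ethylene responsive element binding factor, ERF5 and ERF6 among them, were lower in OE APOLO-1. They are not the whole ERF family, since ERF104 and AT5G51190 are annotated in other words. Also lower were 5 of 9 PLATZ factors, 9 of 24 VQ-motif proteins, 8 of 25 cysteine-rich receptor-like kinases and 12 of 95 proteins with a TIR domain. In addition, 1 VQ-motif gene and 1 receptor-like kinase were higher, and 83 TIR-domain genes, 16 receptor-like kinases and 14 VQ-motif genes were not called. In the 12-library fit 3 binding factors, 4 PLATZ factors, 4 VQ-motif proteins, 1 receptor-like kinase and 5 TIR-domain proteins were lower. VQ proteins are partners of WRKY factors, and TIR proteins include immune receptors. In the VQ family AT2G22880 was at 1.72, 1.79 and 2.24 CPM in OE APOLO-1 and 13.9, 11.1 and 14.8 CPM in vim1-3 (-2.79 ± 0.16, adjusted p = 3.96e-09), although its exons lie wholly within those of AT2G22870 on the opposite strand. Among the receptor-like kinases CRK13 was at 0.787, 0.525 and 0.626 against 6.59, 8.07 and 6.30 CPM (-3.43 ± 0.22, adjusted p = 1.18e-08). Neither gene showed an overlap between the genotypes, and the call of CRK13 was lost in the 12-library fit. In the exons of CRK13, 12.9% of read-length stretches recur elsewhere in the genome.

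Called genes also lay side by side. Along the chromosomes there were 24 runs of 3 or more adjacent tested genes called in the same direction, 21 lower in OE APOLO-1 and 3 higher. Of all genes, 6.06% were called lower and 4.60% higher. How many runs such shares would give if called genes lay at random was not tested. On chromosome 1 a run of 5 TIR-domain genes spanned positions 27432178 to 27443859 (TAIR10.1). Within it AT1G72910 was at 0.286, 0.683 and 0.835 CPM in OE APOLO-1 and 5.86, 5.51 and 5.62 CPM in vim1-3 (-3.16 ± 0.25, adjusted p = 1.35e-07), and AT1G72920 at 1.07, 1.73 and 1.46 against 7.23, 8.63 and 7.83 CPM (-2.43 ± 0.19, adjusted p = 9.82e-08). On chromosome 4 a run of 4 genes for lipid-transfer-like proteins, from 7401087 to 7414955, held AZI1, which is required for priming of systemic immunity, and EARLI1. AZI1 was at 79.8, 87.7 and 101 against 190.4, 168 and 200.1 CPM (-1.05 ± 0.10, adjusted p = 7.45e-07), and EARLI1 at 22.2, 24.4 and 20.3 against 75.5, 94.8 and 79.6 CPM (-1.89 ± 0.10, adjusted p = 1.65e-09). Members of such tandem families resemble each other, and 9.40% of the read-length stretches of AT1G72910 recur elsewhere in the genome, against 0.00% for EARLI1. The call of AZI1 was lost in the 12-library fit.

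A neighbouring pair on chromosome 5 went in opposite directions. AT5G35935, singled out after its values were seen, was at 0.787, 1.37 and 0.939 CPM in OE APOLO-1 and 18.8, 17.5 and 17.7 CPM in vim1-3, a log2 fold change of -4.09 ± 0.16 (adjusted p = 3.84e-11). AT5G35940, a mannose-binding lectin gene 682 bases further on and on the opposite strand, was at 23.8, 22.7 and 18.6 against 6.16, 7.67 and 6.68 CPM (1.68 ± 0.12, adjusted p = 5.36e-08). The call of AT5G35940 was lost in the 12-library fit. In WT at 23 °C, AT5G35935 was at 4.06, 7.69 and 4.34 CPM, between the genotypes. AT5G35940 was at 7.70, 1.03 and 3.52 CPM there, below all OE APOLO-1 libraries, with replicates B and C also below all vim1-3 libraries. AT1G75945, also singled out afterwards, had 0, 2 and 0 reads in OE APOLO-1 and 151, 73 and 145 reads in vim1-3, with 1.43, 2.01 and 1.17 CPM in WT at 23 °C.

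At a mean of 10 CPM or more, genes higher in OE APOLO-1 differed by less. Below that level CYP82C4, a cytochrome P450 gene singled out after its values were seen, had 38, 65 and 46 reads in OE APOLO-1 and 1, 1 and 1 reads in vim1-3 (adjusted p = 9.92e-08). Besides APOLO, the largest differences above it included genes of metal nutrition, growth and the cuticle. NAS1, which makes the metal chelator nicotianamine, was at 13.1, 18.02 and 15.7 CPM in replicates A, B and C of OE APOLO-1 and 4.36, 5.35 and 4.85 CPM in vim1-3, a log2 fold change of 1.71 ± 0.14 (adjusted p = 1.67e-07). FRO5, of the ferric reductase family, was at 17.6, 22.9 and 18.7 against 9.33, 5.59 and 5.45 CPM (1.52 ± 0.20, adjusted p = 8.20e-04). HB1, a haemoglobin that scavenges nitric oxide, was at 16.9, 12.5 and 16.4 against 7.27, 4.72 and 4.73 CPM (1.43 ± 0.17, adjusted p = 9.83e-05). The genotypes did not overlap in any of these genes, and the calls of NAS1, FRO5 and AT2G34080 were lost in the 12-library fit. MLP423, BGLU25, a beta-glucosidase, and AT3G07720, a kelch-repeat protein, had log2 fold changes of 1.41 ± 0.12, 1.40 ± 0.11 and 1.38 ± 0.09. AT2G34080, a cysteine proteinase gene, had 1.26 ± 0.12, with 45.9% of its exon bases overlapping AT2G08650 on the opposite strand. ORG1, annotated as OBP3-responsive protein 1, was at 248, 241 and 298 against 80.0, 133 and 98.2 CPM (1.34 ± 0.20, adjusted p = 0.00452), and its call was lost without any 1 of the OE APOLO-1 libraries or vim1-3 replicate C, where its adjusted p reached 0.0487. HTH, required for a normal cuticle and for keeping floral organs apart, was at 41.8, 42.4 and 41.2 against 19.7, 16.1 and 17.3 CPM (1.23 ± 0.09, adjusted p = 4.42e-08).

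**Figure D3:**
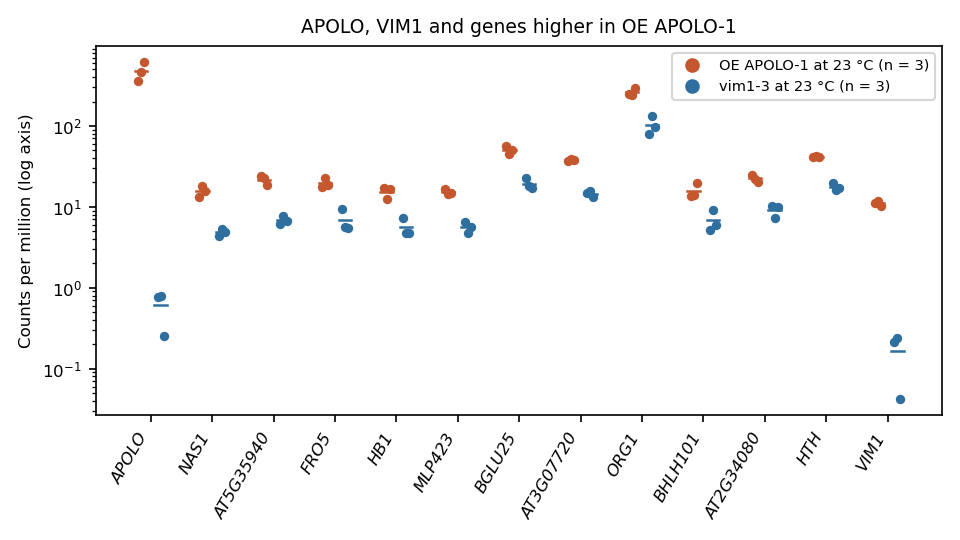
CPM (log axis) of VIM1 and of the 12 genes with the largest increase in OE APOLO-1 at a mean of at least 10 CPM, APOLO among them; each point is a library, the short line the mean of 3, orange OE APOLO-1 and blue vim1-3. APOLO and VIM1 stand apart from the other genes, whose log2 fold changes were at most 1.71.

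By smallest p, the genes higher in OE APOLO-1 were VIM1, CAD9, AT4G28780, AT3G07720 and TSO2. CAD9, of the cinnamyl alcohol dehydrogenase family, was at 129, 127 and 133 CPM in OE APOLO-1 and 57.1, 58.2 and 54.3 CPM in vim1-3, a log2 fold change of 1.201 ± 0.07 (adjusted p = 6.63e-09). TSO2, the small subunit of ribonucleotide reductase, which supplies deoxynucleotides for DNA synthesis, was at 46.8, 43.9 and 49.9 against 19.5, 21.3 and 19.4 CPM (1.23 ± 0.08, adjusted p = 2.53e-08). AT4G28780, a GDSL lipase, was at 62.4, 61.8 and 60.9 against 28.2, 26.3 and 24.7 CPM (1.22 ± 0.08, adjusted p = 9.14e-09). In all 3 the replicates of a genotype lay close together.

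Further families, some with members that act in DNA replication or at the cuticle, were picked out after the values were seen and counted. Of 44 histone genes tested, 19 were higher in OE APOLO-1 and 0 lower, and of 58 GDSL lipases 16 were higher and 1 lower, against 4.60% of all genes called higher. AT1G09200, encoding a histone, was at 46.9, 39.8 and 44.0 CPM in OE APOLO-1 and 23.2, 19.7 and 23.6 CPM in vim1-3 (0.96 ± 0.09, adjusted p = 1.17e-06). HTB1, a histone H2B, was at 31.0, 25.9 and 26.0 against 15.5, 15.7 and 14.5 CPM (0.86 ± 0.10, adjusted p = 7.31e-06). In neither gene did a read-length stretch recur elsewhere in the genome. The 12-library fit called 2 histone genes and 6 GDSL lipases higher, and the calls of AT1G09200 and HTB1 were lost in it. Of 11 MCM subunits, parts of the replicative helicase, 4 were higher, a count that fell to 1 without OE APOLO-1 replicate B or vim1-3 replicate C and to 2 without OE APOLO-1 replicate C or vim1-3 replicate A or B. Ribosomal protein genes had 53 of 311 called higher and 0 lower, and 32, 33, 18, 13 and 14 higher without OE APOLO-1 replicate A or C or vim1-3 replicate A, B or C, respectively. The ribosomal count was 81 with no filter, and the 12-library fit called 0 MCM and 0 ribosomal protein genes higher.

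Iron deficiency genes were higher in OE APOLO-1 at 7 of 18 members tested (38.9%) and lower at 2 (11.1%), beside 4.60% and 6.06% of all genes. Their median log2 fold change was 1.02. FRU, the bHLH factor FIT that switches on iron uptake in the root, was at 10.9, 14.6 and 13.9 CPM in OE APOLO-1 and 8.26, 7.27 and 6.60 CPM in vim1-3 (0.84 ± 0.13, adjusted p = 2.61e-04). BHLH101, a partner of FIT, was at 13.7, 14.0 and 19.9 against 5.13, 9.27 and 5.96 CPM (1.28 ± 0.23, adjusted p = 0.00673), and OPT3, a transporter in iron signalling from the shoot, at 150.1, 124 and 149 against 79.7, 104 and 83.7 CPM (0.67 ± 0.10, adjusted p = 4.16e-04). FER1, a ferritin that stores iron, went the other way. It was at 56.9, 54.6 and 46.1 CPM in OE APOLO-1 and 107, 98.9 and 97.1 CPM in vim1-3 (-0.94 ± 0.09, adjusted p = 7.10e-07). The number called higher was 13 without vim1-3 replicate B, 4 without vim1-3 replicate C, 14 with DESeq2, 12 in the 9 libraries without WT at 23 °C and 3 in the 12-library fit, in which the calls of FRU, NAS1 and FER1 were lost. The call of BHLH101 was lost without OE APOLO-1 replicate A or B or vim1-3 replicate A or C, where its adjusted p reached 0.044. Root hair genes, 0 of 17 called, had a median log2 fold change of 0.31, and vim1-3 replicate B held the lowest summed root hair level (235 CPM); the part of root material in the iron result was not tested.

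Nitrate genes were lower in OE APOLO-1 at 8 of 11 members tested (72.7%) and higher at 1 (9.09%), beside 6.06% and 4.60% of all genes. Their median log2 fold change was -0.50. BT1 and BT2 are BTB and TAZ domain proteins that restrain nitrate uptake. BT1 was at 182, 171 and 206 CPM in replicates A, B and C of OE APOLO-1 and 487, 510.2 and 508 CPM in vim1-3 (-1.43 ± 0.09, adjusted p = 7.67e-09). BT2 was at 366, 314 and 323 against 652, 656 and 658 CPM (-0.97 ± 0.09, adjusted p = 6.66e-07). NIA1, a nitrate reductase, was at 761, 657 and 648 against 1129, 1231 and 1162 CPM (-0.77 ± 0.10, adjusted p = 2.18e-05). The groups did not overlap in these genes. NRT1.1, the nitrate transporter and sensor, was the 1 member higher in OE APOLO-1, at 136, 130.2 and 119.8 CPM against 101, 89.8 and 90.3 CPM (0.46 ± 0.08, adjusted p = 6.62e-04). The 12-library fit called 5 members lower and lost the call of NRT1.1.

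**Figure D4:**
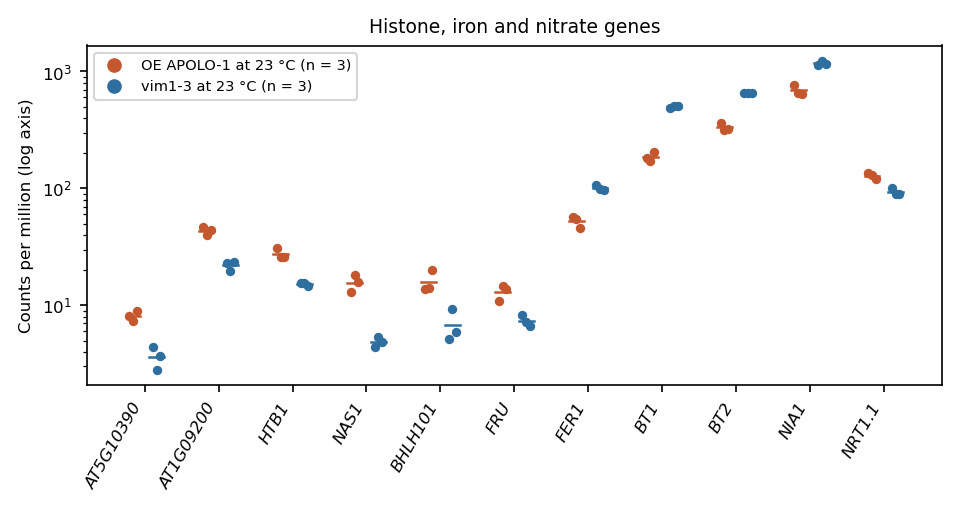
CPM (log axis) of 3 histone genes, 4 iron genes and 4 nitrate genes; each point is a library, the short line the mean of 3, orange OE APOLO-1 and blue vim1-3. FER1, BT1, BT2 and NIA1 are the 4 genes of the plot that are lower in OE APOLO-1.

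Lists of chlorophyll, photosystem, cell wall and water channel genes had more members higher in OE APOLO-1 than lower, while most members outside the chlorophyll list did not pass. The shares of all genes called were 4.60% higher and 6.06% lower. Of 16 chlorophyll biosynthesis genes, 8 were higher and 1 lower (median log2 fold change 0.31). PORB, a protochlorophyllide oxidoreductase, was at 632, 588 and 605 CPM in OE APOLO-1 and 385, 340.2 and 336 CPM in vim1-3 (0.78 ± 0.09, adjusted p = 7.70e-06), and GSA2, an enzyme of an early step, at 130.0, 117 and 123 against 77.8, 80.2 and 79.6 CPM (0.64 ± 0.07, adjusted p = 1.11e-05). Of 49 photosystem and light-harvesting genes 7 were higher and 0 lower, a count that was 27 without OE APOLO-1 replicate B, 2 without replicate C of that line, 1 without vim1-3 replicate A or C and 14 with DESeq2. Expansins, which loosen cell walls, had 6 of 23 higher and 0 lower. EXPA5 was at 21.9, 21.6 and 21.7 against 10.1, 11.2 and 10.2 CPM (1.06 ± 0.09, adjusted p = 5.72e-07), and EXPA2 at 20.5, 18.1 and 19.6 against 12.1, 7.83 and 11.4 CPM (0.86 ± 0.13, adjusted p = 2.34e-04). Aquaporins had 5 of 29 higher and 0 lower, which became 2 without vim1-3 replicate B, 3 without vim1-3 replicate C, 3 in the 9 libraries without WT at 23 °C and 8 with DESeq2. Xyloglucan endotransglucosylases were split, with 6 of 30 higher and 4 lower, and the 6 became 3 without OE APOLO-1 replicate C or vim1-3 replicate C. The 12-library fit called 4 chlorophyll genes, 1 photosystem gene, 1 expansin, 0 aquaporins and 0 xyloglucan endotransglucosylases higher and 2 of the last lower, and the call of EXPA2 was lost in it. The summed root hair levels given above ran in the same direction with overlapping ranges, and their part in the expansin and aquaporin counts was not tested.

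**Figure D5:**
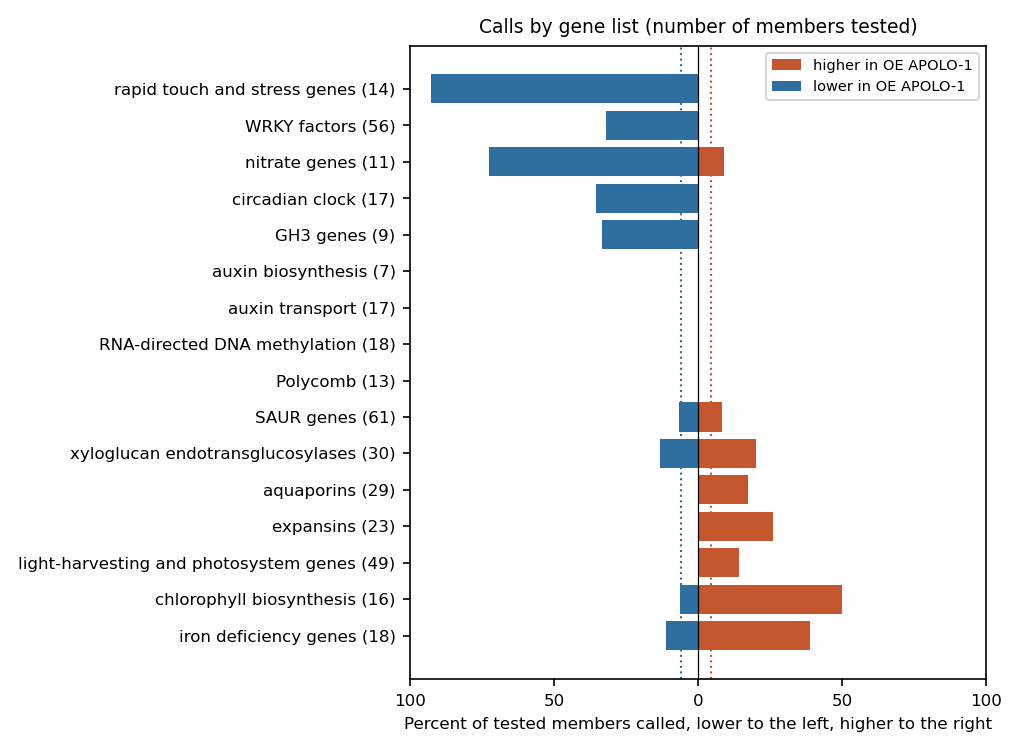
Percent of tested members of 16 gene lists called higher (orange, to the right) or lower (blue, to the left) in OE APOLO-1, with the number tested in brackets; dotted lines mark the 4.60% and 6.06% of all tested genes called in each direction. Rapid touch and stress genes reach 92.9% to the left and chlorophyll biosynthesis genes 50% to the right.

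Auxin lists differed in their share of calls, set beside 4.60% higher and 6.06% lower over all genes. Of 7 auxin biosynthesis genes tested 0 passed, YUC2 and YUC8 included, and of 17 auxin transport genes 0 passed. YUC8, a flavin monooxygenase of auxin synthesis, was at 6.87, 6.62 and 5.53 CPM in OE APOLO-1 and 5.65, 5.59 and 5.07 CPM in vim1-3, a log2 fold change of 0.22 ± 0.14 (adjusted p = 0.316). YUC2 was at 1.00, 2.57 and 1.46 against 1.63, 1.44 and 1.96 CPM (0.01 ± 0.30, adjusted p = 0.985), with ranges that overlapped. Early auxin-response genes were mixed. SAUR genes had 5 of 61 higher (8.20%) and 4 lower (6.56%, near the share of all genes). The 5 became 8 without OE APOLO-1 replicate A or with no filter and 2 in the 12-library fit. The 4 became 2 with DESeq2 or the stricter filter, 0 in the 12-library fit, and 1, 0 and 1 without OE APOLO-1 replicate B or vim1-3 replicate A or C. GH3 genes, which conjugate auxin and other acids to amino acids, had 3 of 9 lower (33.3%) and 0 higher, and 0 lower in the 12-library fit. GH3.3 was at 5.08, 4.31 and 3.29 CPM in OE APOLO-1 and 9.75, 8.79 and 8.77 CPM in vim1-3 (-1.13 ± 0.15, adjusted p = 6.61e-05). SAUR20 was at 10.1, 9.88 and 10.1 against 4.45, 5.04 and 4.68 CPM (1.09 ± 0.13, adjusted p = 9.53e-06). PIF4, the bHLH factor that drives warmth-induced growth, was at 75.4, 66.3 and 65.1 against 63.9, 65.0 and 62.9 CPM (0.11 ± 0.08, adjusted p = 0.361) and did not pass.

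Lists of DNA methylation and Polycomb genes gave 1 call, and the H2A.Z and SWR1 list gave another. Over all genes 4.60% were called higher and 6.06% lower, and in lists this short 1 call says little about the list. Of 18 genes of RNA-directed DNA methylation and 13 Polycomb genes 0 passed, LHP1, listed as TFL2, among them (-0.25 ± 0.10, adjusted p = 0.0820). HTA11, a histone H2A.Z, was the 1 called of 6 H2A.Z and SWR1 genes, at 18.1, 15.9 and 15.5 CPM in OE APOLO-1 and 11.6, 10.8 and 11.7 CPM in vim1-3 (0.53 ± 0.10, adjusted p = 0.00144). MET1, the maintenance methyltransferase, was the 1 of 13 genes of methylation maintenance and removal that passed (7.69%, near the share of all genes). It was at 24.7, 23.4 and 26.0 CPM in OE APOLO-1 and 18.1, 17.8 and 16.9 CPM in vim1-3 (0.49 ± 0.09, adjusted p = 6.97e-04). Of 3 genes known as reporters of lost DNA methylation 1 could be tested. It was QQS, higher in OE APOLO-1 at 1.79, 2.15 and 1.67 CPM against 0.556, 1.04 and 0.894 CPM (1.22 ± 0.29, adjusted p = 0.00758), and its call was lost without any 1 of the OE APOLO-1 libraries or vim1-3 replicate A or C, with an adjusted p of up to 0.0625. In the 12-library fit the calls of HTA11, MET1 and QQS were lost. MAF4 and MAF5, MADS-box repressors of flowering, were the 2 called of 9 flowering time genes (22.2%), both lower in OE APOLO-1. MAF4 was at 2.29, 2.00 and 1.93 against 5.73, 5.19 and 6.81 CPM (-1.53 ± 0.18, adjusted p = 1.15e-05), and MAF5 at 1.00, 0.998 and 1.25 against 3.81, 3.36 and 2.68 CPM (-1.58 ± 0.24, adjusted p = 1.53e-04).

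Clock genes had 6 of 17 lower in OE APOLO-1 (35.3%) and 0 higher, beside 6.06% lower and 4.60% higher over all genes. The 6 became 3, 3 and 2 without vim1-3 replicate A, B or C and 0 in the 12-library fit. PRR5, a repressor of the evening phase, was at 105, 102 and 98.4 CPM in OE APOLO-1 and 133, 153 and 136 CPM in vim1-3 (-0.46 ± 0.08, adjusted p = 4.64e-04). The 20 HSP70, HSP90 and HSP101 chaperones tested had 3 lower (15%) and 1 higher (5%, near the share of all genes). HSP70 was at 13.4, 13.2 and 13.6 against 23.7, 22.4 and 22.7 CPM (-0.78 ± 0.09, adjusted p = 8.97e-06). The 12-library fit called 0 of the chaperones lower, and the calls of PRR5, HSP70 and Hsp70-2 were lost in it. HSP70 stood at 24.4, 113 and 124 CPM in WT replicates A, B and C at 23 °C and at 188, 228 and 171 CPM at 29 °C. Hsp70-2, also lower in OE APOLO-1 (-0.76 ± 0.12, adjusted p = 2.39e-04), stood at 21.3, 62.7 and 75.6 CPM and 11.4, 13.0 and 10.6 CPM in the same WT groups.

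Lists of other pathways gave a few calls each. The thalianol and marneral clusters, neighbouring genes that make root triterpenes, had 3 of 6 higher in OE APOLO-1 and 0 lower, with 1 higher in the 9 libraries without WT at 23 °C and 0 in the 12-library fit. MRN1, the marneral synthase, was at 8.22, 5.78 and 8.03 CPM in OE APOLO-1 and 1.41, 1.76 and 3.02 CPM in vim1-3 (1.80 ± 0.25, adjusted p = 2.34e-04), and root hair genes, another root list, had the overlapping sums given above. Jasmonate genes had 3 of 14 higher and 1 lower, and 1 higher without OE APOLO-1 replicate B or C or vim1-3 replicate A or C. VSP1, a storage protein induced by jasmonate, was at 3.505, 2.36 and 5.11 against 0.984, 1.28 and 1.45 CPM (1.57 ± 0.29, adjusted p = 0.00112), and AOC1, an enzyme of jasmonate synthesis, at 5.01, 6.57 and 4.96 against 9.20, 11.1 and 11.9 CPM (-0.95 ± 0.15, adjusted p = 1.86e-04). These genes moved in opposite directions. The 12-library fit called 0 jasmonate genes higher, and the calls of MRN1, VSP1 and AOC1 were lost in it. Abscisic acid genes had 3 of 16 lower and 0 higher, and 1 lower without vim1-3 replicate B or C or in the 12-library fit. LTI65, a desiccation-responsive protein also called RD29B, was at 11.2, 10.8 and 10.8 CPM in OE APOLO-1 and 24.7, 23.3 and 27.8 CPM in vim1-3 (-1.22 ± 0.10, adjusted p = 1.69e-07). Late embryogenesis abundant proteins, a family of desiccation proteins picked out after the values were seen, had 8 of 45 lower and 0 higher, or 2 lower in the 12-library fit, with LEA7 at 6.22, 7.93 and 8.19 against 29.2, 23.7 and 33.7 CPM (-1.95 ± 0.14, adjusted p = 1.73e-07). Other lists had small counts: 2 of 25 Aux/IAA genes higher and 0 lower, 2 of 11 phosphate starvation genes higher and 0 lower, 2 of 10 cold genes higher and 1 lower, and 1 of 16 gibberellin genes in each direction. These stand beside 4.60% higher and 6.06% lower over all genes. Of 27 cyclins 1 was higher, of 19 warmth and light growth regulators 1 was lower, and of 4 small heat shock proteins 0 passed. Of 12 brassinosteroid genes and 8 type-A response regulators of cytokinin signalling 0 passed.

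Other enzyme families with some members that act at the cuticle were counted in the same way after the values were seen. Of 16 ketoacyl-CoA synthases, which lengthen fatty acids, 5 were higher in OE APOLO-1 and 1 lower. Of 10 glycerol-phosphate acyltransferases, a family only part of which builds cutin and suberin, 4 were higher and 0 lower. Over all genes 4.60% were called higher and 6.06% lower. KCS1 was at 114, 104 and 107 CPM in OE APOLO-1 and 67.3, 74.3 and 66.7 CPM in vim1-3 (0.64 ± 0.08, adjusted p = 1.56e-05), and KCS12 went the other way at 19.6, 18.1 and 18.5 against 51.5, 46.4 and 49.3 CPM (-1.39 ± 0.08, adjusted p = 4.21e-09). GPAT3 was at 24.5, 23.6 and 24.6 against 15.4, 15.4 and 12.9 CPM (0.74 ± 0.10, adjusted p = 3.87e-05). The 5 synthases became 3 without OE APOLO-1 replicate B or C and 2 without vim1-3 replicate A, B or C, and the 4 acyltransferases became 2 without OE APOLO-1 replicate C or vim1-3 replicate A and 1 without vim1-3 replicate C. The 12-library fit called 0 synthases and 1 acyltransferase higher, and the call of KCS1 was lost in it.

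Among noncoding genes, 4 of 219 annotated long noncoding RNAs were higher in OE APOLO-1 and 8 were lower, or 1.83% and 3.65%, against 4.60% and 6.06% of all genes. APOLO, annotated in RefSeq as an uncharacterized protein, is not among them. Transcribed pseudogenes had 1 of 96 higher and 6 lower.

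For the genes lower in OE APOLO-1, WT levels, which come from a joint scaling of all 12 libraries, are given as values only, since the WT libraries at 23 °C varied widely. The summed level of the rapid touch and stress genes was between 836 and 1854 CPM in WT at 23 °C and between 299 and 337 CPM in WT at 29 °C. STZ was at 32.4, 89.3 and 101 CPM in WT replicates A, B and C at 23 °C and at 9.10, 9.47 and 10.1 CPM at 29 °C. AT2G43620 was at 31.0, 165 and 102 CPM at 23 °C and at 1.28, 0.672 and 1.54 CPM at 29 °C. In both genes the vim1-3 values fell within the span of WT at 23 °C. ERF104 differed, with 24.4, 32.0 and 36.2 CPM in WT at 23 °C, below all vim1-3 libraries and above all OE APOLO-1 libraries. DIC2, at 8.99, 24.3 and 26.9 CPM in WT at 23 °C, was also below the vim1-3 libraries and above the OE APOLO-1 libraries.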

How the data were processed

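Counts per gene, deposited by the authors without normalization, were used as they stand. The authors used Trimmomatic 0.36 for trimming, SortMeRNA against ribosomal RNA and STAR 2.5.2b for alignment to TAIR10, and counted exon reads of Araport11 genes with featureCounts (Subread 1.6.5). The paper describes 3 independent biological replicates per genotype. In R 4.3.3 with edgeR 4.0.16, the 6 libraries were filtered with filterByExpr by group, scaled with TMM factors and fitted with glmQLFit (robust) and glmQLFTest, with no covariates and adjustment over all genes tested. SE is the log2 fold change divided by the square root of F. The procedure was also run on simulated counts whose spread was taken from the same 6 libraries, and the outcome is not given here. Of 37336 genes, 37039 were matched to RefSeq TAIR10.1, whose promoters were read with Python 3.11.15. WT levels come from joint TMM scaling of 12 libraries.

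Named genes were those the study is about; in each direction the 12 with the largest change (mean of at least 10 CPM, no overlap) and the 5 with the smallest p; up to 4 called members per list; the neighbours of APOLO and VIM1; and, chosen after their values were seen, AT1G09200, AT1G72910, AT1G72920, AT1G75945, AT2G22880, AT5G35935, AT5G35940, AZI1, CML38, CRK13, CYP82C4, EARLI1, ERF5, FRU, HTB1, KCS1, KCS12, GPAT3, LEA7, NRT1.1, OPT3, TCH2, TCH3, WRKY11 and WRKY70. The members and lists were chosen with earlier results of these data known, and some list entries were dropped after the annotation was read. Of the list entries, 16 were not matched. Alternatives were 12 or 9 libraries, DESeq2 1.42.0, RLE and upper-quartile factors, other filters and thresholds, the replicate letter as a block and each library left out.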

Additional observations from a re-analysis of the deposited data

How the results depend on the processing

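The fit of all 12 libraries called 120 genes higher and 267 lower in OE APOLO-1, in place of 926 and 1220, and 385 of these 387 were among the 2146. It also lost 90 of 156 called genes tracked one by one, where a fit of 9 libraries without WT 23 °C lost 5 and DESeq2 lost 7. With an adjusted p below 0.05 there were 1901 higher and 1997 lower, and with a 2-fold minimum 96 and 383. Leaving out 1 library gave 469 to 874 higher and 880 to 1307 lower. RLE and upper-quartile factors, both other filters, DESeq2 and the 9 libraries kept both counts within 1.5 times. No called gene among these changed direction under any alternative. VIM3, not called, lay between -0.092 and 0.14 with 1 library left out and was below 0 without OE APOLO-1 replicate A or B or vim1-3 replicate B. YUC2, not called, lay between -0.437 and 0.245, and below 0 without OE APOLO-1 replicate B or vim1-3 replicate A or B. The plastid and mitochondrial differences ranged from -0.606 to 0.0427 and from -0.00646 to 3.43e-04 percentage points, above 0 without vim1-3 replicate B.

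The replicate letter as a block gave 1200 genes higher and 1479 lower, and YUC2 went to -0.078. With it 9 SAUR, 89 ribosomal protein and 5 thalianol and marneral genes were higher, in place of 5, 53 and 3. The deviations of libraries from their genotype mean correlated weakly between libraries of the same letter (0.089, 0.031 and -0.001). OE APOLO-1 replicates A and B, but not C, correlated best with their own letter. On the second principal component replicates A, B and C lay at 23.3, -13.1 and -15.8 in OE APOLO-1. Those of vim1-3 lay at 14.1, -18.2 and 9.8. With 3 letters, these values cannot decide whether the letters pair the samples. Depth limits the weakest values: VIM1 in vim1-3 rested on 5, 3 and 1 reads.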
